A study of Mus musculus with 15 samples.

Results

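The response of islet chromatin to partial pancreatectomy (PPx) in mice without Cre was described over 8070 ATAC-seq peaks near 6742 genes, which are all peaks of one deposited comparison once 1337 repeated rows were dropped from 9407. The comparison sets 4 control libraries taken 6 days after PPx against 4 control libraries taken before it, so it uses 8 of the 15 libraries and 8070 of the 41774 peaks listed over the 4 tables of the series. All control mice were males of 3 months with the genotype Arid1aFl/Fl; MIP-rtTA. They carried floxed alleles of Arid1a, a subunit gene of the SWI/SNF chromatin remodelling complex, and a doxycycline-dependent activator under an insulin promoter, but no Cre. They drank doxycycline at 1 g/L for 2 weeks, as the KO-labelled mice did, and PPx came 1 week after the drug was withdrawn. The mice before PPx are labelled as baseline animals, and the labels name no sham operation. The labels count 1 mouse per library, and each library was made from 40000 islet cells, which include alpha, delta and other cells beside beta cells. Whole islets were profiled, so fewer cells of a type and less open chromatin per cell cannot be told apart.

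PPx removes most of the pancreas and leaves a remnant whose beta cells are known to enter the cell cycle. In ATAC-seq the Tn5 transposase cuts DNA that is free of nucleosomes, so active promoters and enhancers collect reads. Growth signals that act on beta cells include the EGF family through ERBB receptors and the MAPK cascade, and prolactin through JAK2 and STAT5. The comparison asks which of these sites differ in openness between remnant and baseline islets when Arid1a is intact as labelled.

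Promoter sequences are given for 3 genes with more and 3 with fewer reads after PPx, those with the smallest deposited p among the named peaks within 1 kb of a start that a RefSeq promoter window overlaps. Each window is 300 bases long, from 250 before to 50 after the gene's start, written 5′ to 3′ on the strand of the gene, with sequences from RefSeq. Capitals mark a GC box (GGGCGG, the core bound by SP and KLF factors) or a CCAAT box (CCAAT, the core bound by NFY) on either strand.

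Hnrnph3 promoter (mm10, chr10:63023800-63024099, minus strand): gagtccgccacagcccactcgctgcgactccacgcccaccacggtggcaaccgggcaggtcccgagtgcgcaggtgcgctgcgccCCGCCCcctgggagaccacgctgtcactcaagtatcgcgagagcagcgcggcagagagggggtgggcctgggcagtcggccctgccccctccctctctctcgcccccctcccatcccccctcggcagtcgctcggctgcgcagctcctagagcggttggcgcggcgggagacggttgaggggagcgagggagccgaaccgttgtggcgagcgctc
Rufy2 promoter (mm10, chr10:62980002-62980301, plus strand): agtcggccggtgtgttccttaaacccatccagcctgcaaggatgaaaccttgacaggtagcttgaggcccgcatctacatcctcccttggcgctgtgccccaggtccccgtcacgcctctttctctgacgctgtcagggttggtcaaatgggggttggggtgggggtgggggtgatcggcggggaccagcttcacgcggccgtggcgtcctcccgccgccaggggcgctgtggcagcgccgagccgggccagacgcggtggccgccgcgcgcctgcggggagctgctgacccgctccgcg
Spred2 promoter (mm10, chr11:19924192-19924491, plus strand): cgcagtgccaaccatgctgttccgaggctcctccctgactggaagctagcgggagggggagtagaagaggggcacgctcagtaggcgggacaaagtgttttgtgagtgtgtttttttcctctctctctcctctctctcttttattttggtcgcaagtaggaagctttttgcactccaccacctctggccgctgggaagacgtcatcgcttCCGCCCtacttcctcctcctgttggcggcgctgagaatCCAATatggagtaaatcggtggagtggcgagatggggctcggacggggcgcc
Pttg1 promoter (mm10, chr11:43425932-43426231, minus strand): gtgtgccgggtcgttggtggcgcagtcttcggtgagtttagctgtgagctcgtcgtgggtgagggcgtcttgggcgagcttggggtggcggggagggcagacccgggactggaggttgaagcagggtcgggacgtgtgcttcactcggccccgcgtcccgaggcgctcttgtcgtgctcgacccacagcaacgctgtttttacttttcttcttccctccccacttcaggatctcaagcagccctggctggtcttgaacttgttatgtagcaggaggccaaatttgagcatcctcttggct
Jak2 promoter (mm10, chr19:29251553-29251852, plus strand): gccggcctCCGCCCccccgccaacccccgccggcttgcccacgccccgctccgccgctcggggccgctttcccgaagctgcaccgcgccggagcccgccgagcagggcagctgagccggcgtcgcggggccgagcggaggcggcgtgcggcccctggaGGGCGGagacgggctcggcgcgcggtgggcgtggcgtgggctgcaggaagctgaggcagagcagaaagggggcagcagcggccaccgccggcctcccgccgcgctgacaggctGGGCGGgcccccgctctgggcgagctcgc
Cdc37l1 promoter (mm10, chr19:28990117-28990416, plus strand): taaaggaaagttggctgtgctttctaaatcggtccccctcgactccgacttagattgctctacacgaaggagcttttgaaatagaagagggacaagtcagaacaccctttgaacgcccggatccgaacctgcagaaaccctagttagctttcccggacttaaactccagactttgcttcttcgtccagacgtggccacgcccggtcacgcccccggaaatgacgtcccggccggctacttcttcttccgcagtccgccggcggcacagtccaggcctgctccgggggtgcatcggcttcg

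The Jak2 window held 3 GC boxes and had a GC content of 81.0%, the Hnrnph3 window held 1, and the Spred2 window held 1 GC box and 1 CCAAT box. Rufy2, Pttg1 and Cdc37l1 held neither motif. A GC box occurs in 73.1% and a CCAAT box in 47.4% of the 3490 windows that overlap a listed promoter peak, from which these 6 come, and in 35.7% and 37.4% of all 32851 RefSeq windows of that length. The windows of Hnrnph3, Spred2, Jak2 and Cdc37l1 lay wholly inside their peaks and those of Pttg1 and Rufy2 shared 268 and 150 bases with theirs.

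No single peak could be called. At an FDR of 0.05 or below the count was 0 of 8070 peaks (0.0%), and the lowest FDR in the authors' deposited table was 0.619. At an unadjusted p under 0.05, 196 peaks had more reads after PPx (2.43% of all peaks) and 8 had fewer (0.0991%), 204 in all (2.53%). Uniform p-values, with no difference at any peak, would place a larger share under 0.05. Small p-values were thus not in excess. These counts carry no call, and the values that follow describe the direction and size of deposited differences. The files give 1 mean for each group, as the log2 of normalised reads per peak, so the values of single libraries and the depth of each library are unknown. The error given beside a log2 fold (after minus before) is the standard error that its deposited p implies. Its median was 0.38 log2 units. At that error a log2 fold of 0.74 is needed for an unadjusted p of 0.05, or 1.14 in the 10% of peaks with the fewest reads and 0.61 in the 10% with the most.

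The deposited signal was slightly higher after PPx over the table as a whole. The median peak had 14.5 normalised reads before and 16.1 after PPx. The median log2 fold was 0.16, the middle 50% of peaks ran from -0.02 to 0.36, and 5871 peaks (72.8%) lay above 0, 105 at 0 and 2094 below 0. The sources used here do not give how the libraries were scaled to each other. With folds centred on their median, the peaks at an unadjusted p under 0.05 numbered 50 with more and 47 with fewer reads, in place of 196 and 8. Folds given from here on are therefore set against 0.16.

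**Figure D1:**
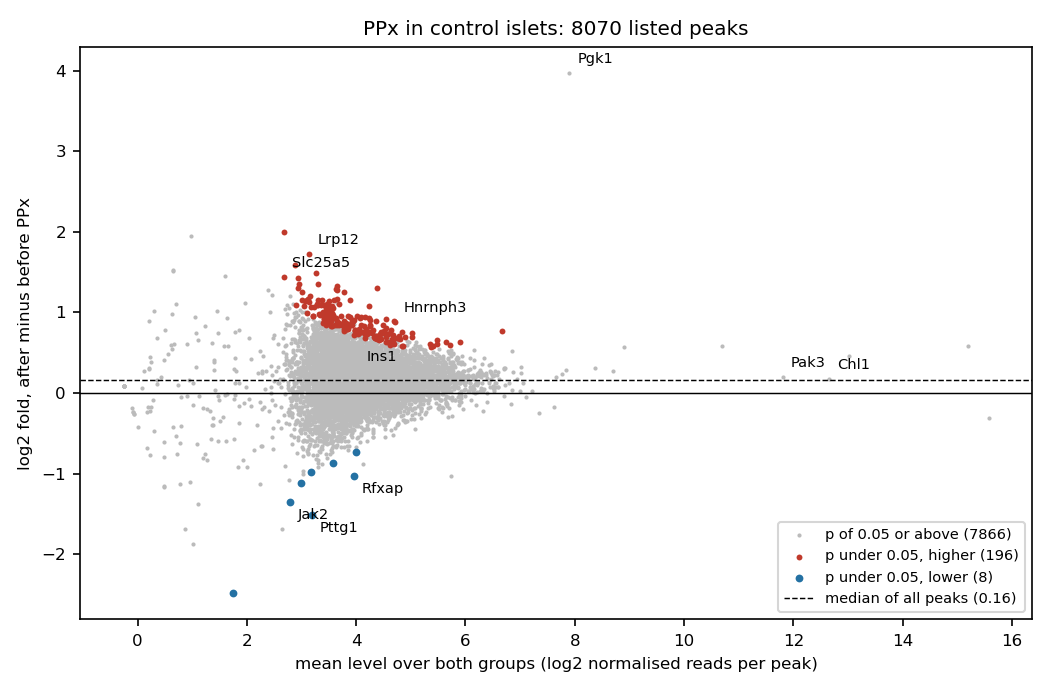
Each point is 1 of 8070 peaks, with the mean level of both groups on the x axis (log2 normalised reads per peak) and the log2 fold after minus before PPx on the y axis. The cloud narrows with level and is centred at 0.16 (dashed line), the 196 red and 8 blue points have an unadjusted p under 0.05, and the Pgk1 promoter stands alone at 3.97.

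The spread of folds narrowed as reads increased. In the 807 peaks with the fewest reads (median 7.62) the folds of the middle 90% ran from -0.65 to 0.98, and in the 807 with the most (median 44.9) from -0.12 to 0.48. The share above 0 was 67.0% in the first and 85.1% in the second, with medians of 0.09 and 0.19. The shift was thus present at high levels, where single folds are most precise. The median implied error was 0.58 in the first and 0.31 in the second. In both, the folds spread less than normal errors of that size would.

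Distal sites had a larger share of small p-values than promoters within 1 kb of a start. Of 1625 distal intergenic peaks, 67 (4.12%) had more reads after PPx at an unadjusted p under 0.05 and 0 had fewer, with a median log2 fold of 0.19. Of 5177 peaks within 1 kb of a start site, 89 (1.72%) had more and 6 had fewer, with a median of 0.15. The 202 peaks at 1 to 3 kb from a start had a median of 0.18, with 11 higher (5.45%). First introns (237 peaks) and later introns (654 peaks) both had a median of 0.22. The gap between all promoter peaks and all other peaks was -0.05 log2 units, and it was -0.06 within bins of equal level.

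Among the 12 higher peaks with the smallest p were 5 promoter peaks within 1 kb of a start. The promoter peak of Hnrnph3, which encodes an RNA-binding protein of the splicing machinery, had 18.5 normalised reads before and 34.1 after PPx and was called in 4 of 4 libraries of both groups. The log2 fold was 0.88 ± 0.31 (implied SE, p = 0.00484, FDR 0.999) in the authors' deposited table. It was the 1 of these 12 peaks that all 8 libraries held. The promoter peak of Rufy2, a gene on the same chromosome that encodes a RUN and FYVE domain protein of endosomes, went from 7.11 to 15.7 reads and was called in 1 of 4 libraries in each group. This peak had a log2 fold of 1.14 ± 0.44 (p = 0.01) in the authors' deposited table.

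The promoter peak of Inafm1 had 9.19 reads before and 20.4 after, with a log2 fold of 1.15 ± 0.39 (p = 0.00305) in the authors' deposited table, with 0 of 4 calls at baseline and 3 of 4 after PPx. At Gpr85, which encodes an orphan receptor found in brain, the promoter peak went from 8.17 to 19.4 reads, with a log2 fold of 1.25 ± 0.44 (p = 0.00453) in the authors' deposited table, with 1 of 4 calls at baseline and 3 of 4 after PPx. The Tescl promoter had 7.73 and 16.0 reads. These 3 promoters shared a pattern of none or few calls before PPx and 2 or 3 calls after it. Kat2b, which encodes the histone acetyltransferase PCAF, had a peak 1 to 3 kb from its start with 7.78 and 17.4 reads, a log2 fold of 1.17 ± 0.45 (p = 0.00892) in the authors' deposited table.

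Distal, intronic and exonic peaks made up the rest of the 12. The smallest p among annotated genes was at a distal peak assigned to Lrp12, a receptor of the LDL receptor family, which had 4.11 reads before and 13.5 after PPx. That gave a log2 fold of 1.72 ± 0.53 (p = 0.00128, FDR 0.999) in the authors' deposited table, where 0 of 4 libraries called the peak before PPx and 2 of 4 after. Over the 3 listed peaks of Lrp12 the lowest log2 fold was -0.02 and the median 0.28. A distal peak assigned to Ndufa4, a subunit gene of the respiratory chain, had 7.11 and 17.9 reads, a log2 fold of 1.33 ± 0.42 (p = 0.00144) in the authors' deposited table, with 0 of 4 calls at baseline and 3 of 4 after PPx. The Ndufa4 peak and the Lrp12 peak with the smallest p were called in no baseline library.

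The distal peak of Sem1, which encodes a small proteasome subunit, had 3.68 and 11.1 reads, and that of the F-box gene Fbxo15 had 12.2 and 23.4. A later intron of Abca15, an ABC transporter gene, had 18.1 and 33.6 reads and 0 of 4 calls at baseline against 2 of 4 after PPx. An exon of Dst, which encodes the cytoskeletal linker dystonin, had 8.17 and 17.6. All 4 had a log2 fold between 0.89 and 1.59 in the authors' deposited table. A distal peak of the predicted gene Gm21860 on chromosome Y, named here because it had the lowest FDR of the table (0.619), had 12.0 and 29.7 reads and a log2 fold of 1.30 ± 0.33 in the authors' deposited table.

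**Figure D2:**
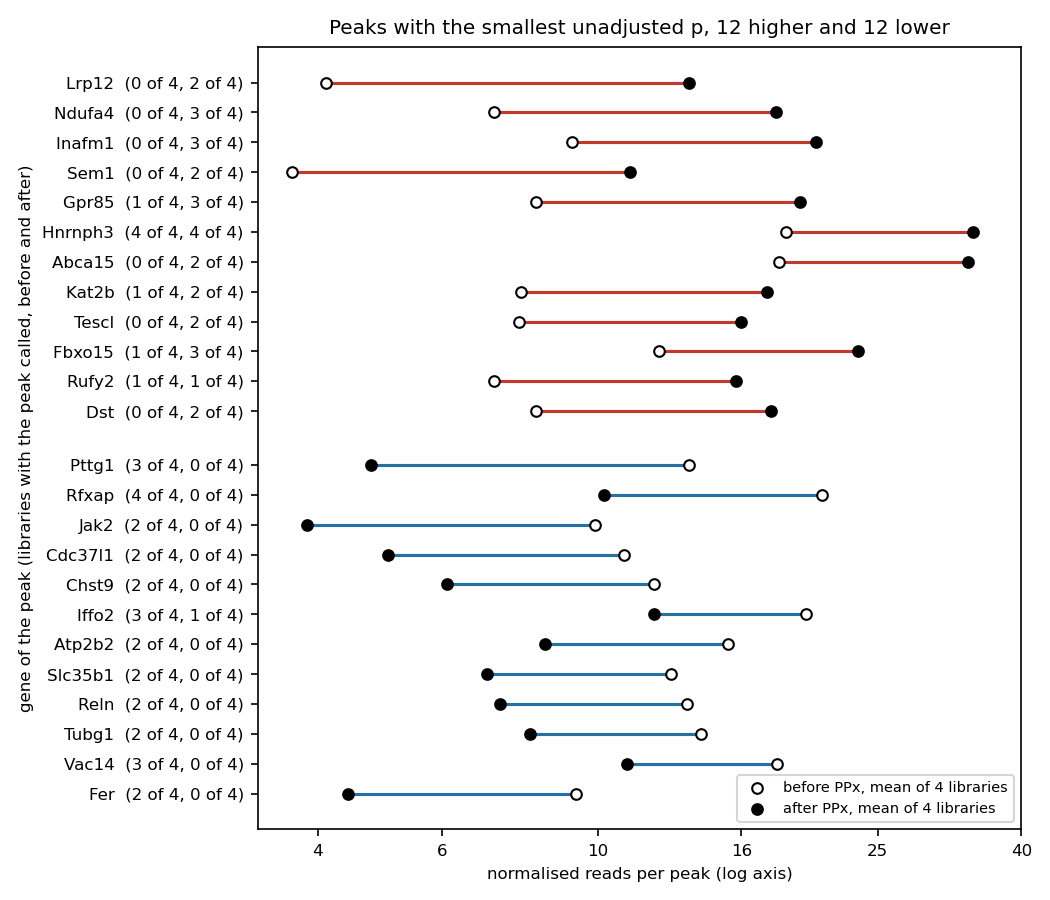
Normalised reads per peak (log axis) before PPx (open) and after PPx (filled), as the authors' means of 4 libraries, for the 12 higher and 12 lower peaks with the smallest p. Brackets give how many of 4 libraries had the peak called before and after, and 11 of the 12 lower peaks were called in 0 of 4 libraries after PPx.

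Of the 8 peaks with fewer reads after PPx at an unadjusted p under 0.05, 6 were promoters, as were 5379 of all 8070 peaks. With folds centred on their median this count was 47. The promoter peak of Pttg1, which encodes securin, the protein that holds back separase until sister chromatids part, had 13.5 reads before and 4.76 after PPx. The fold in log2 units was -1.51 ± 0.48 (p = 0.00152, FDR 0.999) in the authors' deposited table, where 3 of 4 libraries called the peak before PPx and 0 of 4 after. A distal peak assigned to the same gene had 9.71 and 12.9 reads, a log2 fold of 0.41 ± 0.45 in the authors' deposited table, so the 2 sites of this gene lay on opposite sides of 0.

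The promoter of Rfxap, which encodes a subunit of the RFX complex that drives MHC class II genes, had 20.8 and 10.2 reads with 4 of 4 calls at baseline and 0 of 4 after PPx. The log2 fold was -1.03 ± 0.36 (p = 0.00388) in the authors' deposited table. At Jak2, the kinase gene that serves the prolactin and growth hormone receptors, the promoter had 9.92 and 3.86 reads. The log2 fold there was -1.35 ± 0.54 (p = 0.0132) in the authors' deposited table, where 2 of 4 libraries called the peak before PPx and 0 of 4 after. Each of these 3 promoters was called in 0 libraries after PPx, and none passed the adjusted test.

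The promoter of Cdc37l1, a gene related to the HSP90 co-chaperone Cdc37, lies on chromosome 19 like Jak2 and had 10.9 and 5.03 reads, a log2 fold of -1.11 ± 0.54 (p = 0.0399) in the authors' deposited table. First-intron peaks of Atp2b2, a calcium pump of the plasma membrane (15.3 and 8.40 reads), and Chst9, a sulfotransferase (12.0 and 6.11 reads), had log2 folds of -0.87 and -0.98 in the authors' deposited table. The Iffo2 promoter had 19.8 and 12.0 reads. The eighth peak belonged to the predicted gene Gm13284, a promoter with 5.70 and 1.03 reads that was called in 3 of 4 libraries of both groups. The next peaks by p missed 0.05, among them those at the start of Slc35b1, a nucleotide carrier of the endoplasmic reticulum, and Tubg1, which encodes gamma tubulin, at log2 folds of -0.87 ± 0.45 and -0.81 ± 0.43 in the authors' deposited table.

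Calls by library gave a second view of the same sites. On average 4862 listed peaks were called per library before PPx and 4930 after. All 8 libraries shared 1839 peaks (22.8%), of which 81.7% were promoters, with a median log2 fold of 0.18. More libraries held the peak after PPx at 2114 sites and before PPx at 1940 sites. Calls in 0 libraries before and 3 or 4 after were found at 64 peaks, and the opposite at 41. The split by calls was therefore less uneven than the 196 against 8 that folds not centred on their median gave at an unadjusted p under 0.05. Of those 196 peaks, 68 were called in 0 baseline libraries and 33 in all 8. Among all 8070 peaks these numbers were 403 (4.99%) and 1839 (22.8%). Every listed peak was called in at least 2 of the 8 libraries. A peak with 0 calls in one group is thus listed only through the other group, so its fold is no separate support for a difference.

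The extreme of 0 of 4 against 4 of 4 occurred at 1 peak, the promoter of Ube2e1, a ubiquitin-conjugating enzyme gene. It had 12.4 and 20.5 reads, a log2 fold of 0.73 ± 0.35 (p = 0.039) in the authors' deposited table. The reverse occurred at 4 peaks. Besides Rfxap these were the Tcta promoter (16.0 and 11.5 reads), the first intron of Galnt2l (15.9 and 11.6 reads) and an intron of Tusc3 (2.07 and 1.35 reads). Their log2 folds of -0.48 ± 0.36, -0.45 ± 0.36 and -0.62 ± 1.12 in the authors' deposited table were within 1.5 implied standard errors of 0. At these 3 peaks a complete switch in calls went with modest differences in reads, while Rfxap (-1.03 ± 0.36) and Ube2e1 lay further from 0 in standard errors.

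**Figure D3:**
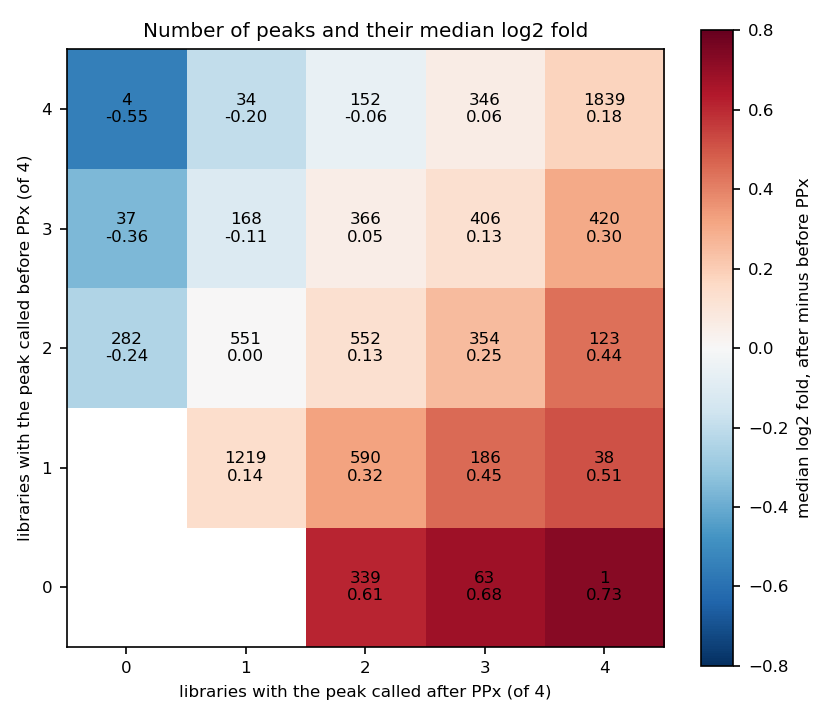
Each square holds the peaks called in a given number of the 4 libraries before PPx (y axis) and after PPx (x axis), with their number above and their median log2 fold below, which the colour repeats. The 1839 peaks called in all 8 libraries have a median of 0.18, and only squares with 0 calls in one group lie above 0.51 or below -0.20. Peaks of those squares are listed only through calls in the other group, so their medians are not independent of the listing.

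The gene lists covered 547 genes, of which 193 had 246 listed peaks with a median log2 fold of 0.22 against 0.16 for all peaks. Of these peaks 7 had more reads at an unadjusted p under 0.05 (2.85%, against 2.43% of all peaks). At the same p 2 had fewer (0.813%, against 0.0991%), and 0 passed the FDR. Of the 23 lists with peaks, 18 had a median above 0.16 and 5 below, from -0.09 to 0.40. With 1 peak per gene, the one with the most reads, 14 lists lay above 0.16, 1 at it and 8 below.

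The list of EGF family ligands and receptors, which also held Lrig1 (19.3 and 20.7 reads), had 10 peaks. Their median log2 fold was 0.22, or 0.10 with 1 peak per gene. None was at p under 0.05, and all 10 lay above 0, as did 72.8% of all peaks. The ligand genes Areg (amphiregulin) and Btc (betacellulin) had promoter peaks of 14.0 and 14.9 reads and of 19.0 and 20.0 reads before and after PPx. Their log2 folds were 0.08 ± 0.38 and 0.07 ± 0.35 in the authors' deposited table. An exon peak of Egf had 27.9 and 30.9 reads. For the receptor gene Egfr the promoter had 10.9 and 16.1 reads and intron 1 had 19.0 and 24.6, with log2 folds of 0.57 ± 0.43 and 0.38 ± 0.32 in the authors' deposited table. Intron 1 of the receptor gene Erbb4 had 17.4 and 21.6 reads. Of 3 peaks in Nrg3, a neuregulin gene, the one with the smallest p lay in intron 1, at 7.94 and 14.2 reads, with a log2 fold of 0.84 ± 0.50 (p = 0.0909) in the authors' deposited table. The Areg and Btc promoters thus lay below the table's median and the Egfr and Erbb4 peaks above it, each by less than 1 implied standard error.

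MAPK signalling and its feedback genes had 21 peaks, 20 of them above 0 (95.2%, against 72.8% of all peaks). Their median log2 fold of 0.38 was the highest of any list with more than 10 peaks. At p under 0.05 there were 2 higher and 0 lower, against 2.43% and 0.0991% of all peaks. The promoter of Spred2, which encodes an inhibitor of RAS to RAF signalling, had 16.9 and 28.8 reads and 1 of 4 calls at baseline against 4 of 4 after PPx. Its log2 fold was 0.77 ± 0.31 (p = 0.0133) in the authors' deposited table. A neighbouring Spred2 peak 1 to 3 kb from the start was the 1 list member below 0, with 14.2 and 10.5 reads and 2 of 4 calls at baseline against 0 of 4 after PPx. A distal peak of Etv1, an ETS factor gene downstream of ERK that also stands in the alpha cell list, had 35.5 and 54.2 reads and calls in 4 of 4 libraries of both groups. The log2 fold was 0.61 ± 0.30 (p = 0.041) in the authors' deposited table. Core kinase genes had promoter log2 folds of 0.42 ± 0.40 at Braf and 0.43 ± 0.47 at Map2k2 (MEK2) in the authors' deposited table. The phosphatase gene Dusp6, a target of ERK, had promoter peaks at 18.1 and 18.8 reads and at 27.1 and 27.3 reads, nearly equal before and after PPx. With the trend by promoter class and level removed, the list's median was 0.18.

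Cell cycle driver genes had 15 peaks with a median log2 fold of 0.19, or 0.06 with 1 peak per gene. Among them 2, both of Cdk6, a kinase gene that acts with D cyclins, were higher at p under 0.05, against 2.43% of all peaks. The Cdk6 promoter had 9.51 and 17.8 reads with 0 of 4 calls at baseline and 3 of 4 after PPx, and a log2 fold of 0.90 ± 0.40 (p = 0.0255) in the authors' deposited table. A Cdk6 intron had 10.1 and 17.1 reads, a log2 fold of 0.77 ± 0.39 (p = 0.0458) in the authors' deposited table, and another intron had 14.8 and 15.5. Ccnd3, which encodes cyclin D3, had 1 peak in intron 1 with 14.0 and 9.65 reads, a log2 fold of -0.54 ± 0.42 in the authors' deposited table. Cdk1 and Ccnb1, which act at the entry to mitosis, had promoter peaks of 14.6 and 12.1 reads and 10.9 and 9.0 reads. The most accessible driver promoter, that of E2f3, had 68.6 and 73.0 reads with calls in 4 of 4 libraries of both groups. The 10 peaks of cell cycle inhibitors had a median of 0.24 and none at p under 0.05. The Cdkn2a promoter had 14.9 and 20.7 reads, a log2 fold of 0.47 ± 0.35 in the authors' deposited table.

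DNA replication genes had 17 peaks with a median log2 fold of 0.19, and 1 was higher at p under 0.05 (2.43% of all peaks were). This was the promoter of Rrm1, which encodes the large subunit of ribonucleotide reductase, with 12.1 and 21.1 reads and 1 of 4 calls at baseline against 3 of 4 after PPx. This peak had a log2 fold of 0.80 ± 0.36 (p = 0.0262) in the authors' deposited table. Among the genes of the MCM helicase, log2 folds ran from 0.04 at Mcm5 to 0.44 at Mcm6 in the authors' deposited table, and Pcna, the sliding clamp gene, had 19.0 and 18.6 reads. The 18 peaks of mitosis genes had a median of 0.23. Of these 1, at Pttg1, was lower at p under 0.05, against 0.0991% of all peaks for folds not centred on their median. The promoters of Ttk, a spindle checkpoint kinase gene, and Mad2l1, a checkpoint gene, had 17.0 and 22.5 reads and 84.4 and 84.4 reads. The Mad2l1, Mcm3, Mcm4 and Mcm5 promoters were called in every library of both groups.

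The prolactin receptor and serotonin list had 6 peaks with a median log2 fold of 0.05, or -0.10 with 1 peak per gene. Jak2 was its 1 lower peak at p under 0.05, against 0.0991% of all peaks for folds not centred on their median. Socs2 and Ghr, the feedback inhibitor and the receptor gene of growth hormone signalling, had promoter log2 folds of 0.60 ± 0.44 and 0.51 ± 0.41 in the authors' deposited table. Stat3 had 17.8 and 16.6 reads. The 16 peaks of insulin and IGF receptor signalling had a median of 0.12, and the promoter of Insr, the insulin receptor gene, had 19.0 and 28.6 reads with a log2 fold of 0.59 ± 0.34 (p = 0.0863) in the authors' deposited table. The 13 TGF-beta and activin peaks had a median of 0.27. Inhba, the activin A subunit gene, had 11.5 and 19.0 reads in an intron and 32.0 and 45.3 at its promoter, with log2 folds of 0.72 ± 0.39 and 0.50 ± 0.30 in the authors' deposited table.

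Beta cell identity genes lay at the level of the table. Their 16 peaks had a median log2 fold of 0.18, 11 above 0 and 5 below, and none at p under 0.05. At the insulin gene Ins1 the promoter had 14.9 and 18.0 reads, a log2 fold of 0.27 ± 0.46 (p = 0.556) in the authors' deposited table, with 1 of 4 calls at baseline and 2 of 4 after PPx. The promoters of the factor genes Nkx6-1 and Foxa2 had 16.1 and 13.8 reads and 12.9 and 12.6 reads, with log2 folds of -0.22 ± 0.34 and -0.04 ± 0.41 in the authors' deposited table. The largest of the list was 0.59 ± 0.40 at the promoter of G6pc2, a beta cell glucose-6-phosphatase gene, in the authors' deposited table. The highest level was at the promoter of Pax6, an islet factor gene, with 47.8 and 54.6 reads and calls in all 8 libraries. Mean calls per peak of the list were 3.00 of 4 before and 2.44 of 4 after PPx, while the summed reads were 305 and 340. Ins2, Pdx1, Mafa, Nkx2-2, Neurod1 and Arid1a had no listed peak, so the deposited comparison gives no value for them. In the list of genes that beta cells normally silence, Lmo4 and Yap1 had 1 peak each, at log2 folds of 0.44 ± 0.40 and 0.23 ± 0.42 in the authors' deposited table.

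The progenitor and dedifferentiation list had 7 peaks with a median log2 fold of 0.31, or 0.20 with 1 peak per gene, and its higher values came from Myc, a growth-promoting transcription factor gene. The Myc promoter had 19.2 and 28.1 reads and 1 of 4 calls at baseline against 4 of 4 after PPx, with a log2 fold of 0.55 ± 0.32 (p = 0.0854) in the authors' deposited table. A distal Myc peak with 9.13 and 16.4 reads had a log2 fold of 0.85 ± 0.39 (p = 0.0298) and another with 7.41 and 13.4 reads one of 0.85 ± 0.49 in the authors' deposited table. Both distal peaks had 0 of 4 calls at baseline and 2 of 4 after PPx. Sox4, a factor gene of endocrine progenitors, had 2 peaks at log2 folds of 0.24 ± 0.37 and 0.31 ± 0.45, and Gata6 had 1 at -0.21 ± 0.34, in the authors' deposited table.

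**Figure D4:**
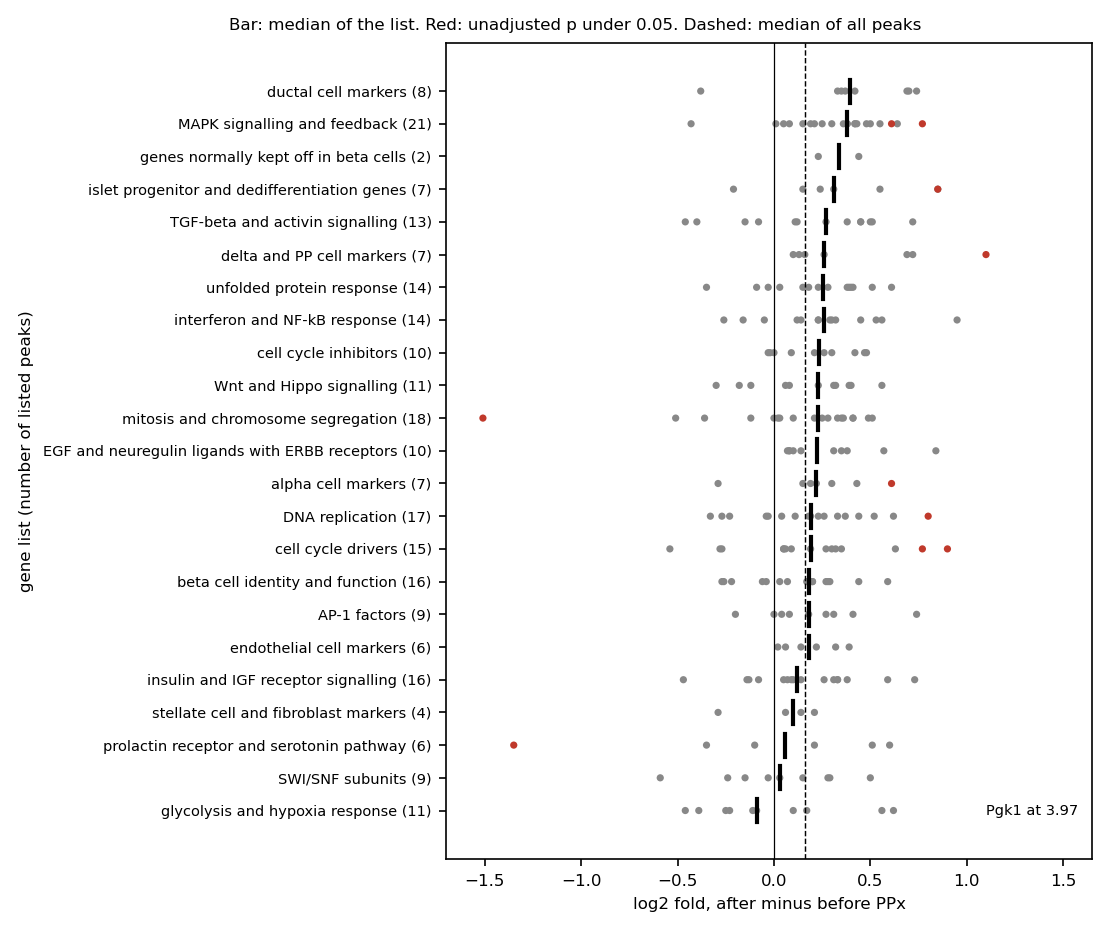
Log2 fold after minus before PPx (x axis) of every listed peak of the 23 gene lists with peaks (y axis, number of peaks in brackets). List medians (bars) run from -0.09 to 0.40 around the median of all peaks at 0.16 (dashed), red points have an unadjusted p under 0.05, and the Pgk1 promoter at 3.97 is off the scale.

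Markers of other cells were checked beside these lists. Acinar, leukocyte and Schwann cell lists, of 22, 17 and 9 genes, had 0 listed peaks, so the comparison gives no value for them. The 7 alpha cell peaks had a median log2 fold of 0.22 with summed reads of 156 before and 194 after PPx. Of these peaks 3 belonged to Etv1, which is also in the MAPK list, and held most of the reads. They had 35.5 and 54.2, 43.7 and 53.8, and 29.9 and 34.1 reads. The promoter of the glucagon gene Gcg had 10.7 and 14.4 reads, and that of Pou3f4, the 1 peak below 0, had 9.38 and 7.67. The 7 delta and PP cell peaks had a median of 0.26 (0.16 with 1 peak per gene) and sums of 102 and 129. Of these the Bche promoter, a butyrylcholinesterase gene, had 7.06 and 15.0 reads, a log2 fold of 1.10 ± 0.47 (p = 0.0189) in the authors' deposited table, while the distal peak of Sst, the somatostatin gene, had 18.8 and 20.3. The 6 endothelial peaks had sums of 88.6 and 101, and the 4 stellate cell and fibroblast peaks 46.6 and 47.3.

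Among 8 ductal peaks with a median log2 fold of 0.40 and summed reads of 108 and 148, 6 belonged to Pkhd1, the fibrocystin gene of ductal and renal cilia. They ran from 0.35 to 0.74, the highest at its promoter (11.4 and 19.0 reads, p = 0.0596), in the authors' deposited table. The other 2, in introns of Cftr and Bicc1, were at -0.38 ± 0.50 and 0.33 ± 0.51 in the authors' deposited table. The part of these cell types in the other differences was not tested.

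The 15 gene families had medians between 0.08 for proteasome subunits and 0.26 for mitochondrial ribosomal proteins, or -0.01 for proteasome subunits with 1 peak per gene. Of their 878 peaks 21 were higher at p under 0.05 (2.39%, against 2.43% of all peaks) and 0 lower. The 42 peaks of cytosolic ribosomal proteins, whose pattern also takes pseudogenes, had a median of 0.12 with 2 higher. The 103 solute carrier peaks had a median of 0.20 with 6 higher, the most extreme at the promoter of Slc25a5, the ADP/ATP carrier gene, with 3.41 and 9.32 reads and a log2 fold of 1.44 ± 0.58 (p = 0.0136) in the authors' deposited table. The 220 zinc finger gene peaks had a median of 0.18 and also 6 higher.

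The glycolysis and hypoxia list had a median of -0.09 over 11 peaks, or 0.01 with 1 peak per gene, and also the largest single fold of the table. The promoter of Pgk1, which encodes phosphoglycerate kinase (mm10, chromosome X, 106186576 to 106187176), had 28.6 reads before and 449 after PPx. That gave a log2 fold of 3.97 with a p of exactly 1 in the authors' deposited table, and it was called in 4 of 4 libraries of both groups. A p of 1 beside such a fold gives no error for it, and a group mean does not show how many of the 4 libraries carry the signal. A p of exactly 1 also stood beside 5 other peaks, 4 of them with a log2 fold of 0.00 or 0.01 in the authors' deposited table. The remaining one, a distal peak of the predicted gene Gm25696, had 22.5 and 12.2 reads and a log2 fold of -0.88 there. The other 10 peaks of the list had a median of -0.10 and summed reads of 118 before and 118 after PPx. Of the transcription factor genes of the hypoxia response, Arnt had 11.0 and 16.9 reads and Hif1a 12.9 and 12.0, both at promoters.

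Among annotated genes the highest read level was at an exon peak of the adhesion gene Chl1, with 6080 and 6840 reads. A distal peak of the kinase gene Pak3 had 3330 and 3820. Their log2 folds were 0.17 ± 0.30 and 0.20 ± 0.31 in the authors' deposited table. Predicted genes, which the rule for named peaks leaves out, held still higher peaks. Gm10222 had 54000 and 43800 reads and Gm10800 had 30200 and 45400, both called in all 8 libraries. Their log2 folds were -0.31 ± 0.29 and 0.58 ± 0.34 in the authors' deposited table. The median peak had 15.2 normalised reads, and whether reads at levels so far above it measure open chromatin was not tested.

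Several sites of 1 gene can be set side by side. Of 210 genes with 3 or more peaks, 33 had all of them above the table's median of 0.16 and 10 had all below it. Pam, an enzyme gene for peptide hormone amidation, and Ptprd, a receptor phosphatase gene, had the most peaks, 7 each. Their medians were 0.32 and 0.20, and 5 of 7 peaks lay above 0 in both. At Ptprd the 2 most accessible introns had 55.7 and 64.0 reads and 51.6 and 71.5 reads and were called in 4 of 4 libraries of both groups. Cdk14, a kinase gene of the cyclin Y family, ran from -0.06 to 0.80 over 5 peaks, the highest at a promoter with 9.19 and 16.0 reads. The sites of 1 gene share a source and are not replicates of PPx.

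Chromosome 11 had the lowest median among the chromosomes. Its 241 peaks had a median log2 fold of 0.03, with 52.3% above 0, and 190 promoter peaks within 1 kb had a median of 0.01. On the other autosomes medians ran from 0.10 on chromosome 18 to 0.22 on chromosome 1. Chromosome 11 also had few listed promoters, with a near promoter peak at 162 of 1609 RefSeq protein-coding genes (10.1%) against 286 of 983 (29.1%) on chromosome 3, where the median was 0.21. The share and the median did not go together throughout. Chromosome 18 had the highest share, 151 of 510 (29.6%), with its median of 0.10. Pttg1, Slc35b1 and Tubg1 of the lower peaks lie on chromosome 11, as do both Spred2 peaks described above. The X chromosome had a median of 0.22 with 82.2% of 298 peaks above 0.

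The KO-labelled islets offer a comparison in which no library is shared. Their mice had the same floxed alleles and activator plus TRE-Cre, with 3 libraries before and 4 after PPx, and there 951 of 12767 peaks were higher at the authors' FDR of 0.05 (7.45%). Of the 8070 control peaks, 7535 (93.4%) overlapped a peak of that table. Over these the median log2 fold was 0.16 in controls and 0.83 in KO-labelled islets. The scaling between the tables is unknown, and the difference in level was not tested. The order of peaks did not carry over: Pearson's r was 0.0139 and Spearman's rho 0.0107 across the 7535 peaks, which are not independent and whose control folds have a median standard error of 0.38 against a middle 50% from -0.02 to 0.36. When peaks were put in 5 equal groups by control fold, with control medians from -0.20 to 0.55, the KO-labelled medians stayed between 0.82 and 0.84.

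In KO-labelled islets 7359 of the 7535 matched peaks (97.7%) lay above 0. So did every matched peak of the 12 higher and the 12 lower with the smallest p in controls. Not all other named peaks did, such as the Tusc3 intron at a log2 fold of -0.53 ± 1.05. Of the 12 named lower peaks 7 were matched, at log2 folds from 0.63 to 1.41, and of the 12 named higher peaks 10 were matched, from 0.49 to 1.43, in the authors' deposited table of KO-labelled islets. The Pttg1 promoter had 11.1 and 20.8 reads before and after PPx there, against 13.5 and 4.76 in controls. Rfxap had 18.9 and 29.7, against 20.8 and 10.2, and Jak2 had 4.96 and 10.8, against 9.92 and 3.86. Hnrnph3 had 17.1 and 36.0, against 18.5 and 34.1, with an FDR of 0.0484 in the authors' deposited table of KO-labelled islets. The Pgk1 promoter had 28.6 and 102, a log2 fold of 1.83 ± 0.65 (FDR 0.0503) in that deposited table of the authors.

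**Figure D5:**
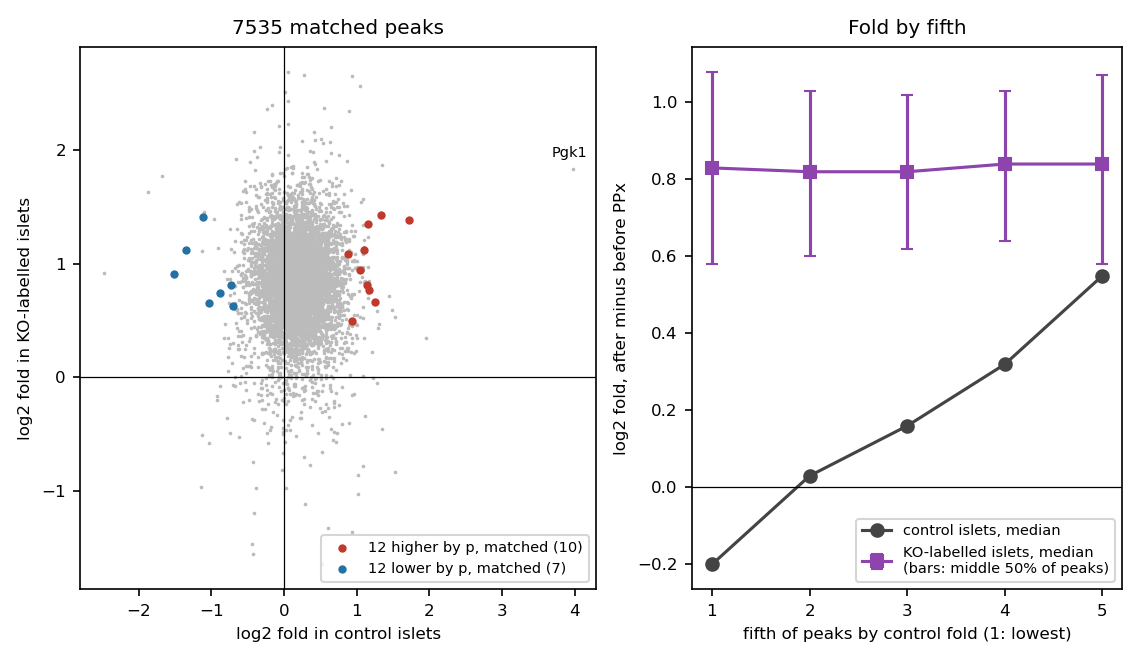
Left, log2 fold after minus before PPx of 7535 matched peaks in control islets (x axis) and KO-labelled islets (y axis), with 10 named higher peaks in red and 7 named lower peaks in blue, all above 0 on the y axis like 97.7% of the matched peaks. Right, medians of both for 5 equal groups of peaks by control fold (bars, middle 50% of peaks), where the KO-labelled median stays between 0.82 and 0.84.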

How the data were processed

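The tools BWA, cutadapt, MACS, ChIPseeker and DiffBind and the build mm10 are named by the submitters' processing notes, without versions or settings. What the authors deposited is, per peak of 601 bp, the group means as log2 concentrations of normalised reads, a log2 fold, a p-value and FDR, and the count of libraries of each group with the peak called. Every listed peak was called in at least 2 of the 8 libraries. How libraries were scaled, and the test behind the p-value, are not named in the deposited file headers.

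Repeated rows were dropped (1337 of 9407), log2 means were turned into reads, and folds into after minus before. The standard error of a fold came from the deposited p read as a two-sided normal test (where the fold was under 0.1 or p from 0.95 up, from the median over peaks of like level, in 40 bins). It rests on reading that p as the spread between libraries, 4 mice a group. Over all peaks the folds had quartiles of -0.02 and 0.36, and the median implied error was 0.38. Normal errors of that size alone would spread the folds more widely, so the implied errors may overstate the sampling spread. Distances given in standard errors are thus only a restatement of the deposited p. An FDR of 0.05 was the threshold. Of near promoters, 3490 of 5177 (67.4%) had a RefSeq window (GRCm38.p6, the mm10 assembly). Base composition and motifs could be set against fold only for these, and that comparison is not reported here. Tables were matched by an overlap of 1 bp. Steps that need a standard error were tested on simulated data (Python 3.11.15, pandas 2.3.3, scipy 1.17.1).

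The rule for named peaks takes the 12 higher and 12 lower with the smallest p (1 per gene, no predicted genes), complete switches of calls, the 8 highest levels, the 6 genes with most peaks, the extremes of each list, and chosen beta cell genes. Other list members were named after their values were seen. Peaks, gene lists and rules were chosen with earlier results of these data known.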

Additional observations from a re-analysis of the deposited data

How the results depend on the processing

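Only group means are in the table, so no library could be left out and leave-one-out fits were not run. No paired analysis was possible because the sample numbers in the titles are not shared between groups and the values are group means. The count at an FDR of 0.05 stayed 0 when repeated rows were kept, at an FDR of 0.10, with p adjusted over the listed peaks and at or above the median level (lowest adjusted p 0.619, 0.619, 0.599 and 0.299). Centred on the median fold it was 1, the Pgk1 promoter, whose error had to be taken from other peaks, and 0 with the peaks at a p of 1 left out, an alternative added after seeing the data. At an unadjusted p under 0.05, centring gave 50 higher and 47 lower peaks, and the peaks at or above the median level 87 and 2, in place of 196 and 8. The share above 0 was 77.7% at or above the median level and 76.7% in peaks called in at least 2 libraries of each group, in place of 72.8%. The median fold stayed between 0.16 and 0.17, and the promoter gap between -0.07 and -0.05. List medians ran from -0.22 to 0.18 with the trend by class and level removed, and no list moved by more than 0.23. With 1 peak per gene they ran from -0.10 to 0.42, in place of -0.09 to 0.40. Standard errors of the 167 peaks that the naming rule takes ran from 0.20 to 1.06 by a t quantile with 6 degrees of freedom, in place of 0.22 to 1.12. With 15.2 normalised reads at the median peak, log2 folds under 0.74 stay short of an unadjusted p of 0.05 at the median error.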
